A study of Gallus gallus with 10 samples.

Results

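The genes described are kinases, partners and transcriptional targets of the Hippo pathway in the embryonic chicken retina: the kinases LATS1 and LATS2, the co-activator YAP1 and its DNA-binding partner TEAD1, the junction-associated regulators AMOTL1, AMOTL2 and AJUBA, and the target genes CRIM1 and CYR61 (also called CCN1). They were chosen by name, with earlier results of these data known. Of the 9, 8 were found by exact symbol among the 12464 genes of the expression table, and AJUBA was not analysed here. Both retinas were taken from 5 wild-type Dekalb white embryos, which had been incubated at 37 °C to Hamburger and Hamilton stage 23 (about embryonic day 4) before the lens of 1 eye was pulled out through a slit in the dorsal eyeball and the egg was returned to the incubator for 6 h. The comparison is of 5 operated retinas with the 5 unoperated retinas of the same embryos, and addresses the dependence of retinal transcription on the lens. The operated eye had been opened as well as deprived of its lens, so that wounding and loss of the lens cannot be told apart, and there was no eye that was opened and kept its lens.

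In the Hippo pathway a cascade of kinases ends in LATS1 and LATS2, which phosphorylate YAP1 and its relative TAZ (gene WWTR1) and so keep them out of the nucleus. Unphosphorylated YAP1 and TAZ enter the nucleus, bind the TEAD factors and switch on genes of growth, adhesion and matrix. Several of these targets, LATS2 and AMOTL2 among them, encode inhibitors of YAP1, so that the pathway contains negative feedback. In the vertebrate eye, YAP1 and the TEAD factors are known for the choice between pigment epithelium and neural retina and for the growth of progenitors. Phosphorylation and location of these proteins are not visible in transcript levels.

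Levels are normalised read counts per gene as the authors scaled them, with column totals of 979286 to 1033235 per library and effective depths of 18671063 to 26005271 reads. They are not divided by gene length, so that levels are compared between libraries and not between genes. All 7 neural retina markers in the table were detected in every library, with summed levels of 1057 to 1376 in control and 1239 to 1406 in operated retinas. Of 9076 genes with a mean of at least 10, which were the ones tested, 10.6% passed at an adjusted p under 0.05 with a higher level after lens removal and 12.3% with a lower one (limma, moderated linear model with the embryo as a block). Log2 changes are within-embryo estimates on log2(value + 1), and spreads are SD over the 5 embryos of a group unless another n is given.

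Of the 8 members, all of which reached the level tested, LATS2, AMOTL2 and CRIM1 fell in the operated retina, none rose, and 5 did not pass. All 3 lie below 0 in 5 of 5 embryos, as 17.2% of all tested genes do. Their choice as genes called lower in these same embryos favours that, so it adds nothing to the call. The median log2 change of the 8 was -0.17, against -0.0013 over all tested genes. The 8 were chosen with earlier results of these data known, which can fix part of this difference, and it was not tested. LATS2 passed with each embryo left out in turn, whereas AMOTL2 and CRIM1 passed without embryo 3 alone.

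**Figure D1:**
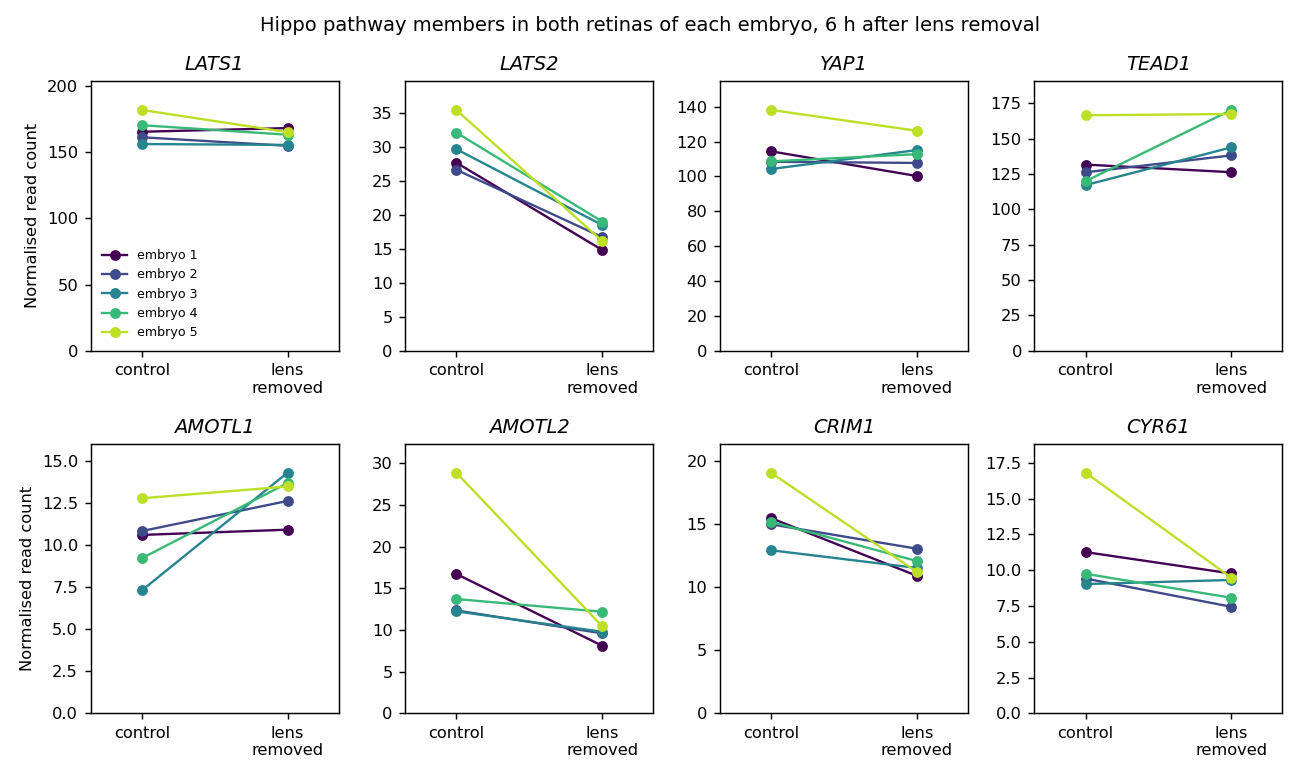
Normalised read count (vertical axes, from 0) of the 8 genes in the control and the operated retina of each embryo; each line joins the 2 retinas of 1 embryo. LATS2 goes down in all 5 embryos to between 14.8 and 19.0, and the control retina of embryo 5 stands highest for AMOTL2 (28.9) and CYR61 (16.8).

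LATS2 encodes one of the pair of kinases that phosphorylate YAP1, and is itself a target of YAP1. In the control retinas of embryos 1 to 5 it was at 27.6, 26.6, 29.6, 32.1 and 35.4, and in the operated retinas of the same embryos at 14.8, 16.7, 18.5, 19.0 and 16.1. The groups did not overlap, which held in this direction for 7.27% of the tested genes and in the other for 6.41%, and the highest operated retina lay well under the lowest control. The log2 change was -0.79 (SE 0.09, adjusted p = 0.00063 by limma, n = 5 embryos), a level 0.577 times that of the control with a 95% interval of 0.504 to 0.661. The smallest change of its level was -37.3%, in embryo 2, and the largest -54.5%, in embryo 5. The log2 change ranked 26 from the lowest among the 9076 tested genes, and the gene rested on 301 to 844 reads per library. Over 12 other ways of processing that kept LATS2 in the test (pseudocount, filter, scaling, block, variance prior and each embryo left out), its log2 change lay between -0.86 and -0.68 and the adjusted p between 0.00028 and 0.0062.

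LATS1, the paralogous kinase with overlapping substrates, did not follow. It was at 165, 161, 156, 170.4 and 182 in the controls and at 168, 155, 156, 163 and 165 in the operated retinas. The groups overlapped over most of their range, and the log2 change of -0.05 (95% interval -0.17 to 0.07, adjusted p = 0.53 by limma) allows a fall of no more than about 0.17 on the log2 scale. The spread of its 5 within-embryo changes (SD 0.06) was smaller than that of all but 3.70% of the tested genes. The ratio of the LATS2 to the LATS1 value, in which the scaling of a library cancels, went from 0.181 ± 0.014 in control to 0.106 ± 0.013 in operated retinas (SD, n = 5) with no overlap. LATS2 alone did not overlap either, and how often ratios of other gene pairs separate was not examined. The difference between the log2 changes of LATS2 and LATS1 was -0.75 on average (SD 0.16) and lay between -0.95 and -0.58 over the embryos. An exact sign-flip permutation test over the 5 embryos gave two-sided p = 0.0625, the smallest p that 5 pairs allow, and 0.0625 after adjustment over the 2 paralogue pairs compared.

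YAP1, the co-activator that the LATS kinases restrain, was at 114, 108, 104, 109 and 138 in the control retinas. In the operated retinas it was at 100.3, 108, 115, 113 and 126. It was higher in 2 embryos and lower in 3, and its log2 change was -0.03 (SE 0.06, 95% interval -0.17 to 0.12, adjusted p = 0.79 by limma). TEAD1, a DNA-binding partner of YAP1, was at 132, 126, 117, 120.0 and 167 in the controls and at 126, 138, 144, 170.4 and 168 in the operated retinas. It was higher in 4 of 5 embryos, by very different amounts: the value was 42.1% higher in embryo 4, 22.8% in embryo 3 and 0.542% in embryo 5. Its log2 change of 0.17 (SE 0.08, 95% interval -0.02 to 0.36) did not pass (adjusted p = 0.16 by limma). Both genes rested on at least 2349 reads in every library, and both were highest among controls in embryo 5.

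The angiomotin-like proteins sit at cell junctions and bind YAP1, and they can also activate the LATS kinases. AMOTL2 was at 16.7, 12.3, 12.2, 13.7 and 28.9 in the controls and at 8.11, 9.60, 9.79, 12.2 and 10.4 in the operated retinas. It was lower in each operated retina than in its partner, and the groups did not overlap, but the highest operated value (12.18) and the lowest control (12.23) were almost the same. The log2 change was -0.63 (SE 0.17, adjusted p = 0.033 by limma), made up of a change of -63.8% in embryo 5, -51.5% in embryo 1 and between -22.3% and -11.1% in the other 3. The spread of its changes (SD 0.52) exceeded that of 97.8% of the tested genes. Without embryo 5 the means were 13.8 ± 2.09 and 9.92 ± 1.68 (SD, n = 4), and the log2 change of -0.44 had an adjusted p of 0.070 by limma. The adjusted p was 0.064, 0.063 and 0.057 without embryos 1, 2 and 4, 0.025 without embryo 3, and 0.060 with no block for the embryo.

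AMOTL1 moved the other way in value. It was at 10.6, 10.8, 7.31, 9.23 and 12.8 in the controls and at 10.9, 12.6, 14.3, 13.7 and 13.5 in the operated retinas. It was higher in 5 of 5 embryos, as were 14.7% of all tested genes, by 2.94% in embryo 1 and by 95.8% in embryo 3. The log2 change of 0.34 (SE 0.13) did not pass (adjusted p = 0.093 by limma), and was 0.21 without embryo 3. The ratio of the AMOTL2 to the AMOTL1 value was 1.63 ± 0.406 in control and 0.769 ± 0.075 in operated retinas (SD, n = 5). The lowest control ratio was 1.14 and the highest operated ratio 0.889, so that the ratios did not overlap. Neither did AMOTL2 alone, and here too the ratios of other gene pairs were not examined. The log2 changes of AMOTL2 and AMOTL1 differed by -0.97 on average (SD 0.37, lowest -1.46, highest -0.54), again with the smallest p that 5 pairs allow (0.0625, exact sign-flip permutation test, two-sided, 0.0625 after adjustment over the 2 pairs). Their relative AMOT, the founding member of the family, was at 115 ± 27.1 and 118 ± 21.4 (adjusted p = 0.81 by limma, n = 5); its log2 change of 0.04 was -0.05 without embryo 3 or without embryo 4.

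AJUBA belongs to a small family of LIM-domain proteins that bind LATS kinases at junctions, and its relatives LIMD1 and WTIP stand in the table. LIMD1 was at 32.0 ± 3.92 in control and 30.5 ± 3.33 in operated retinas (adjusted p = 0.58 by limma, n = 5). WTIP was at 20.3 ± 3.36 and 20.6 ± 4.80 (adjusted p = 0.96 by limma).

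**Figure D2:**
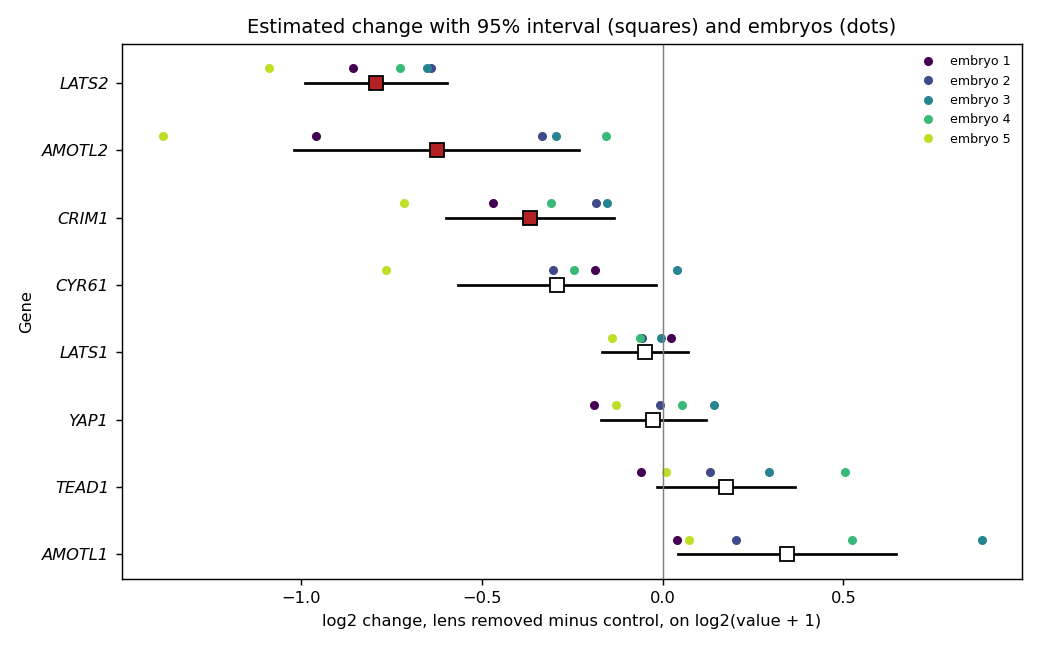
Log2 change of each gene on log2(value + 1), lens removed minus control (horizontal axis): squares are the limma estimates with 95% intervals, red where the adjusted p is under 0.05, and dots are the 5 embryos. LATS2 has all its dots below -0.6, while embryo 5 and embryo 1 lie well below the other 3 for AMOTL2.

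CRIM1 and CYR61 are known as transcriptional targets of YAP1. CRIM1, a transmembrane protein that binds bone morphogenetic proteins, was at 15.4, 15.0, 12.9, 15.2 and 19.0 in the controls and at 10.9, 13.0, 11.5, 12.1 and 11.2 in the operated retinas. The groups overlapped by a narrow margin, at 12.9 and 13.0, and every embryo was lower in the operated eye. The log2 change was -0.37 (SE 0.10, adjusted p = 0.034 by limma), a level 0.776 times that of the control with a 95% interval of 0.660 to 0.911. Without embryo 5 the log2 change was -0.28 (adjusted p = 0.081), and the adjusted p was 0.057, 0.070 and 0.11 without embryos 1, 2 and 4 and 0.033 without embryo 3.

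CYR61, a secreted matrix protein that is a standard readout of YAP1 activity, was at 11.3, 9.42, 9.04, 9.75 and 16.8 in the controls. In the operated retinas it was at 9.77, 7.45, 9.32, 8.08 and 9.48. It was lower in 4 of 5 embryos, and the log2 change of -0.29 (SE 0.12) did not pass (adjusted p = 0.11 by limma). Its change in embryo 5 was -0.77, against a range of -0.30 to 0.04 in the other 4. Without embryo 5 the means were 9.87 ± 0.977 and 8.66 ± 1.08 (SD, n = 4; adjusted p = 0.27 by limma). It passed only under quantile normalisation (log2 change -0.40, adjusted p = 0.034). CYR61 rested on 177 to 401 reads per library, and its mean of 10.04 lies just over the level tested. Its operated mean of 8.82 lies under that level and its control mean of 11.3 over it. CYR61 thus reached the level tested only through the controls, so its direction is tied to the filter. In the fit without the filter its adjusted p was 0.11 by limma.

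Some markers of tissues next to the retina also changed, and their changes and those of these genes differed between embryos. Of 4 pigment epithelium markers tested, 1 fell and 3 did not pass. Of 4 periocular mesenchyme markers tested, 2 fell and 2 did not pass. Over all tested genes 12.3% fell. The log2 change was below 0 for all 4 pigment markers and for 3 of the mesenchyme markers. The other, COL1A2, was higher in 4 of 5 embryos (log2 change 0.21, adjusted p = 0.46 by limma). The summed level of 8 pigment epithelium markers of 13 listed was 87.3 to 454 in control and 92.9 to 158 in operated retinas, and that of 7 periocular mesenchyme markers of 12 listed was 53.4 to 210 and 59.6 to 86.1. None of these markers was at 0 in any library, and both sums were highest in the control retina of embryo 5, which also had the highest value among controls of each of the 8 members. In a bulk sample, fewer cells of a type and less RNA per cell cannot be told apart. In embryo 1 neither list was lower on average in the operated retina (mean log2 change 0.07 for pigment and 0.15 for mesenchyme markers). In that embryo LATS2 changed by -0.86, AMOTL2 by -0.96, CRIM1 by -0.47 and CYR61 by -0.19. In embryo 5 the marker lists changed by -1.47 and -1.42, LATS2 by -1.09, AMOTL2 by -1.38, CRIM1 by -0.72 and CYR61 by -0.77. In embryos 2, 3 and 4 pigment markers changed by -0.96, -0.51 and -0.67 and mesenchyme markers by -0.55, -0.49 and -0.89. LATS2 changed there by -0.64, -0.65 and -0.73 and AMOTL2 by -0.33, -0.30 and -0.16. The changes of CRIM1 were -0.19, -0.15 and -0.31, and those of CYR61 -0.30, 0.04 and -0.24. When the pigment or the mesenchyme level entered the fit as a covariate, an alternative added after the data were seen, the log2 change of LATS2 was -0.70 in both fits (adjusted p = 0.12 and 0.074 by limma). Under the same covariates that of CYR61 was -0.01 and -0.06, that of AMOTL2 -0.44 and -0.49, and that of CRIM1 -0.26 in both. AMOTL2 (adjusted p = 0.63 and 0.53 by limma) and CRIM1 (0.63 and 0.55) lost their calls there as well. These fits called 69 and 115 genes in all, against 2075 without a covariate. The 5 haemoglobin genes in the table, of 11 red cell markers listed, had summed levels of 30.0 to 378 in control and 111 to 319 in operated retinas and were higher in 4 of 5 operated retinas; their part in the results was not tested.

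**Figure D3:**
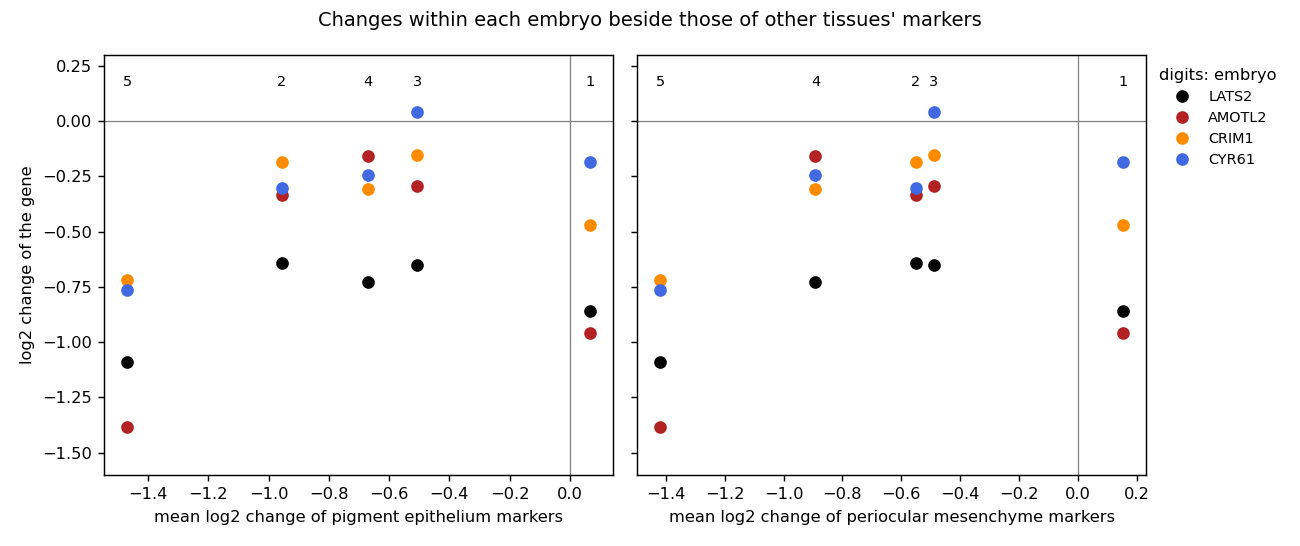
Log2 change of 4 genes within each embryo (vertical axis) against the mean log2 change of 8 pigment epithelium markers (left) or 7 periocular mesenchyme markers (right); digits name the embryo. In embryo 1 the markers lie at 0.07 and 0.15 while LATS2 lies at -0.86, and in embryo 5 the markers and all 4 genes lie lowest.

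The wider pathway was followed in 4 lists of 80 genes found in the table, 76 of them tested. Leaving out the members, 8 of 70 tested genes rose, 7 fell and 55 did not pass, shares of the same order as the 10.6% and 12.3% of all tested genes, and the median log2 change was 0.07. The 17 genes called in these lists with the members included became 6 of 76 without embryo 2 and 7 without embryo 4. The drop was not particular to these lists. Over all 9076 tested genes the 2075 calls became 815 without embryo 2 and 688 without embryo 4.

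Among the kinases, scaffolds and adaptors listed for the pathway, 17 genes other than the members were tested. Of these, 1 rose, 3 fell and 13 did not pass. NF2, which encodes the scaffold merlin and brings LATS kinases to the membrane, fell in 5 of 5 embryos, from 160.1 ± 12.0 to 131 ± 9.11 (log2 change -0.29, adjusted p = 0.0070 by limma, n = 5), with no overlap. MOB1A, the co-activator that LATS kinases bind, fell from 47.5 ± 1.28 to 38.5 ± 2.34 (adjusted p = 0.014), also without overlap. WWC2, a relative of the scaffold KIBRA, fell from 55.5 ± 5.96 to 46.0 ± 5.30 (adjusted p = 0.045), and the kinase TNIK rose from 98.6 ± 26.1 to 131 ± 20.9 (adjusted p = 0.030). The upstream kinases STK3 and STK4 did not pass. STK3 was at 48.9 ± 3.63 and 43.8 ± 2.97 (adjusted p = 0.14) and STK4 at 163 ± 9.44 and 146 ± 5.21 (adjusted p = 0.089). With embryo 1 left out STK4 did pass (adjusted p = 0.049 by limma). Their adaptor SAV1, at 88.2 ± 3.73 and 93.7 ± 6.16, did not pass either (adjusted p = 0.34). The call of NF2 held with each embryo left out. That of MOB1A was lost without embryo 2 or 4, that of TNIK without embryo 2, 3 or 4, and that of WWC2 without any of embryos 1, 2, 4 and 5. RASSF1, a scaffold of these kinases, lay below the level tested, at 4.48 ± 1.06 and 8.14 ± 0.977; in the fit without the filter it was higher (log2 change 0.76, adjusted p = 0.0024 by limma).

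Of 23 tested genes of junctions, polarity and atypical cadherins other than the members, 4 rose, 2 fell and 17 did not pass. The phosphatase PTPN14, which binds YAP1 and is also one of its targets, fell to 16.6 ± 2.91 from 26.5 ± 5.89 in the controls (log2 change -0.63, SE 0.09, adjusted p = 0.0027 by limma, n = 5). It was lower in 5 of 5 embryos with no overlap, and passed without each embryo in turn. Its relative PTPN21 rose from 48.03 ± 2.12 to 58.9 ± 3.26 (adjusted p = 0.013). The apical polarity gene CRB1 rose by 0.56 on the log2 scale, from 51.0 ± 7.44 to 75.8 ± 11.7 (adjusted p = 0.0067), the atypical cadherin FAT3 from 28.6 ± 9.55 to 44.3 ± 5.91 (adjusted p = 0.016), and N-cadherin (CDH2) from 513 ± 71.8 to 620.4 ± 56.4 (adjusted p = 0.048). Without embryo 2 the calls of PTPN21, FAT3 and CDH2 were lost (adjusted p = 0.075, 0.056 and 0.13). Without embryo 4 those of PTPN21, FAT3 and CDH2 were lost (0.076, 0.083 and 0.19), and that of CDH2 also without embryo 3 or 5.

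Among 16 genes listed for phosphatase complexes of the pathway, 1 rose, 2 fell and 13 did not pass. STRIP2 fell in 5 of 5 embryos, from 42.9 ± 9.30 to 27.5 ± 5.90 (log2 change -0.62, adjusted p = 0.00094 by limma, n = 5), and SIKE1 from 140 ± 16.4 to 111 ± 4.49 (adjusted p = 0.015; 0.072 and 0.080 without embryos 2 and 4). STRN, which encodes the striatin scaffold, rose from 71.4 ± 6.65 to 88.8 ± 13.5 (adjusted p = 0.027), but not without embryo 2, 4 or 5 (adjusted p = 0.069, 0.12 and 0.075).

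Downstream, 14 tested genes of the YAP1 and TAZ module other than the members gave 2 that rose and 12 that did not pass. WWTR1, which encodes TAZ, the paralogue of YAP1, was at 9.83, 10.04, 10.1, 10.6 and 11.5 in the controls and at 18.6, 17.4, 19.6, 17.8 and 22.1 in the operated retinas. The groups lay far apart, and the log2 change was 0.81 (SE 0.08, adjusted p = 0.00038 by limma, n = 5). It passed under all 12 of the same other ways of processing, and with the pigment and mesenchyme covariates its log2 change was 0.82 in both (adjusted p = 0.058 and 0.039 by limma). Its change and that of YAP1 stood side by side at 0.81 and -0.03; the difference was noticed in the data and was not tested. CSNK1E, a casein kinase that marks YAP1 for degradation, rose from 82.3 ± 4.30 to 101 ± 14.2 (adjusted p = 0.028), but not without embryo 2, 3, 4 or 5 (adjusted p = 0.063 to 0.12). The other TEAD genes in the table were TEAD3, at 14.5 ± 2.84 and 18.2 ± 2.66 (adjusted p = 0.052), and TEAD4, at 54.6 ± 2.56 and 60.7 ± 2.29 (adjusted p = 0.091). Neither passed, and both were higher in 5 of 5 embryos, as were 14.7% of all tested genes. Without embryo 1 TEAD3 did pass (adjusted p = 0.021 by limma).

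**Figure D4:**
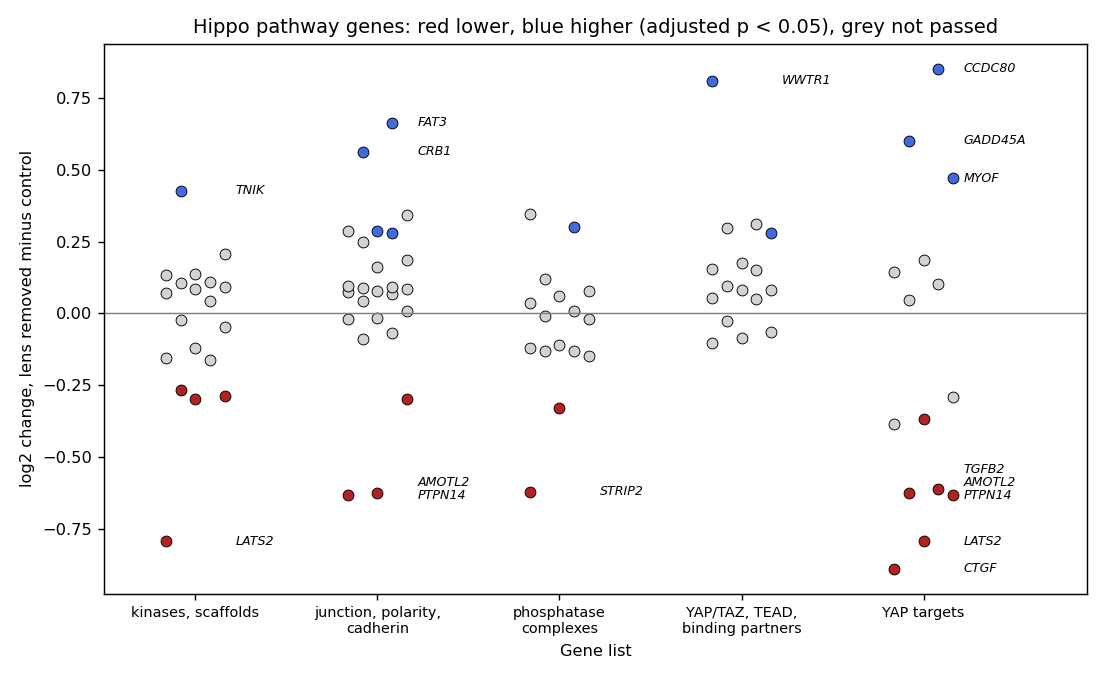
Log2 change, lens removed minus control (vertical axis), of the tested genes of 5 lists (horizontal axis; horizontal scatter within a list has no meaning); red genes fell and blue genes rose at an adjusted p under 0.05. WWTR1 (0.81) and CCDC80 (0.85) lie highest and CTGF (-0.89) and LATS2 (-0.79) lowest.

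A list of 17 YAP1 target genes found in the table, 15 of them tested, moved in both directions. The list includes the members LATS2, AMOTL2, CRIM1 and CYR61. Of the 11 others tested, 3 rose, 3 fell and 5 did not pass, and their median log2 change was 0.10. Over all tested genes 10.6% rose and 12.3% fell. The list is short and was drawn up with earlier results of these data known, and its share of calls was not tested. CTGF (also called CCN2), the closest relative of CYR61 in use as a readout of YAP1, was at 14.0, 9.57, 12.8, 12.1 and 24.0 in the controls and at 7.73, 5.62, 7.43, 6.73 and 7.77 in the operated retinas. It fell in every embryo with no overlap (log2 change -0.89, SE 0.13, adjusted p = 0.0030 by limma, n = 5), and without embryo 5, its highest control, by 0.73 on the log2 scale (adjusted p = 0.0038). Its mean of 10.8 over all libraries lies just over the level tested. CTGF reached that level only through the controls, so its direction is tied to the filter. In the fit without the filter its adjusted p was 0.0021 by limma. TGFB2, the growth factor TGF-beta 2, had an operated mean of 9.56, so that it too reached the level tested through the controls. It fell by 0.61 on the log2 scale (adjusted p = 0.011 by limma), and its direction is likewise tied to the filter. Without the filter its adjusted p was 0.0092, and with no block for the embryo 0.059 (limma). PTPN14, given above, also belongs to this list. Against these, CCDC80, a secreted matrix protein, rose to 119 ± 15.6 from 65.4 ± 2.61 in the controls (log2 change 0.85, SE 0.07, adjusted p = 0.00022 by limma). GADD45A, a stress-induced growth arrest gene, rose from 16.2 ± 2.21 to 25.1 ± 2.62 (adjusted p = 0.0047), and MYOF, a membrane repair protein, from 24.5 ± 2.55 to 34.7 ± 7.19 (adjusted p = 0.013; 0.053 and 0.067 without embryos 2 and 4). The coagulation factor gene F3 was at 23.0 ± 5.32 and 17.3 ± 3.73 and did not pass (adjusted p = 0.058). F3 did pass as lower without embryo 1 and under quantile normalisation (adjusted p = 0.021 and 0.032 by limma). With the pigment or the mesenchyme covariate 1 gene of this list was called, CCDC80 (log2 change 1.01 and 0.95, adjusted p = 0.021 and 0.023 by limma).

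For each member that fell, the 3 other tested genes with the most similar set of 5 within-embryo log2 changes were found by the root mean square difference, among 8750 genes with a full symbol. For LATS2 they were OTX1, a homeobox gene of the optic cup (difference 0.17), FRY, known in other species as a scaffold of the NDR kinases, relatives of LATS (0.18), and CTGF (0.20). The mean level of OTX1 was 18.7 in control and 10.6 in operated retinas and that of FRY 80.8 and 51.0, a direction that their choice by likeness to LATS2 fixes. For AMOTL2 they were RASGRF2 (0.20), MICALL2 (0.21) and PODN (0.30), and for CRIM1 FAAH2 (0.047), MRPL2 (0.097) and PCBD1 (0.11). For AMOTL2 the nearest genes thus lay farther off than the farthest of those named for CRIM1.

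**Figure D5:**
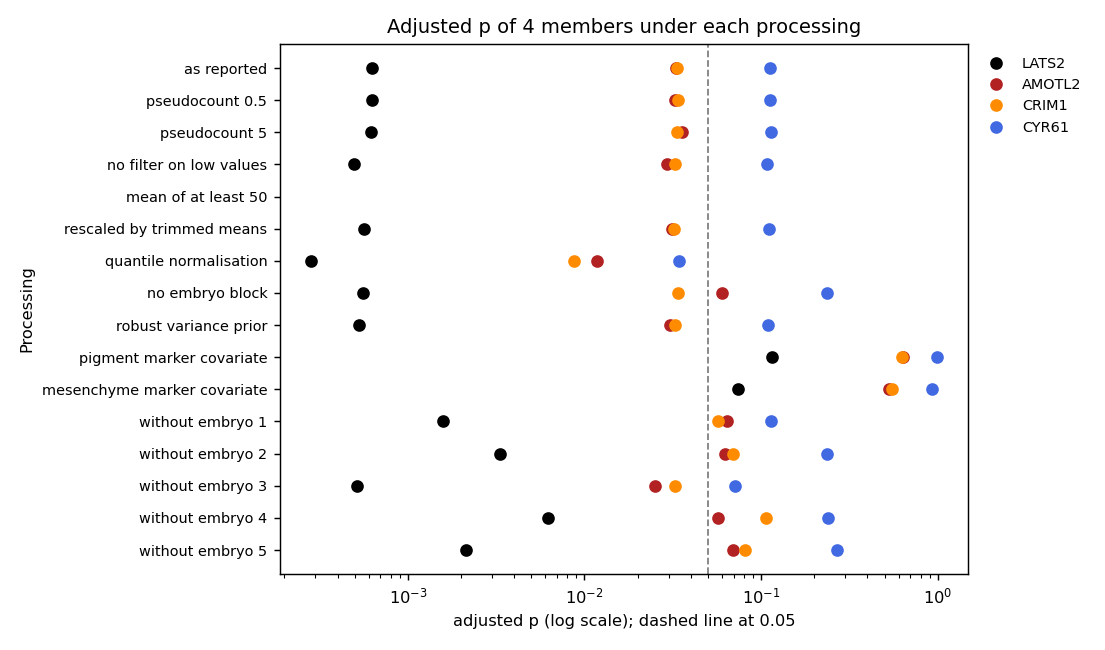
Adjusted p (horizontal axis, log scale, dashed line at 0.05) of 4 genes under each way of processing (vertical axis); genes with a mean under 50 have no value where only means of at least 50 were tested. LATS2 lies left of the line under all but the 2 marker covariates. AMOTL2 and CRIM1 cross it with these covariates and when embryo 1, 2, 4 or 5 is left out. AMOTL2 also crosses it with no embryo block, and CYR61 lies left of it under quantile normalisation alone.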

How the data were processed

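Values are the signal deposited by the authors, read counts per gene scaled to near-equal library totals; how they were scaled, annotated and assigned to strands is not given in the sources used here. For alignment and counting the submitters' processing notes list HISAT2 2.1.0, Subread 1.6.2, featureCounts and SAMtools 1.9 beside the build GRCg6a, without saying what each did. Per the labels' protocols, stranded libraries of polyadenylated RNA were read as 75 bp paired ends; all carry batch 128. The spacing of low values gave the depth, but only 89.9% to 91.6% of values up to 400 reads were whole within 0.01, so no count model was used. Counting error is covered by the spread between embryos.

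Differences on log2(value + 1), a scale that understates changes of low genes, were tested with limma 3.58.1 (R 4.3.3, intensity trend, two-sided, embryo as block, Benjamini-Hochberg adjustment over 9076 genes with a mean of at least 10); the fit was tested on simulated data. The titles number the embryos, and deviations of the 2 retinas of an embryo correlated across genes at 0.31 to 0.76. Results were recomputed with a pseudocount of 0.5 or 5, with no filter, with a minimum mean of 50, with trimmed-mean rescaling, quantile normalisation, no block, a robust prior and leaving out each embryo; the marker covariates were added after seeing the data. Members and lists were chosen with earlier results of these data known. Every member was named, with up to 5 passing genes per direction of each list in order of p, and AMOT, LIMD1, WTIP, TEAD3, TEAD4, STK3, STK4, SAV1, RASSF1 and F3 were added after their values were seen; 1 gene that this rule selects is not reported here but stays in the counts. Python 3.11.15, pandas 2.3.3, numpy 2.4.6 and matplotlib 3.10.9 were used.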

Additional observations from a re-analysis of the deposited data

Results flagged for a closer look

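In 2 of 26 sets of 5 values examined, 1 value stood apart from the other 4 (a gap above 0.71 of the whole range; chance gives about 1 in 20). The control retina of embryo 5 had an AMOTL2 level of 28.9 against 12.2 to 16.7 in the other 4 controls, with a gap of 0.73 of the range. The same library had a CYR61 level of 16.8 against 9.04 to 11.3, with a gap of 0.713 of the range. It was also the highest control for YAP1 and TEAD1, whose gaps of 0.700 and 0.706 lay just under the cut. The sets share libraries and values, so they are not independent. In the operated retina of that embryo AMOTL2 and CYR61 lay within the range of the other operated retinas.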

How the results depend on the processing

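LATS2 kept its direction and its side of the threshold under all 12 of the alternatives chosen first that tested it, and lost the call with the 2 marker covariates. The number of members called was 0 with a mean of at least 50, where 3 were tested, 0 with either covariate, and 1 to 3 with an embryo left out. All tested genes called were 1226 with a mean of at least 50 (412 higher, 814 lower), 69 with the pigment and 115 with the mesenchyme covariate, and 688 to 2846 with an embryo left out. Of the wider Hippo genes, 10 were called with a mean of at least 50, 11 with no replicate block against 17 with it, 0 and 1 with the pigment and mesenchyme covariates, and 6 to 22 with an embryo left out. YAP1 targets called were 1 with a mean of at least 50, where 2 were tested, and 1 with either covariate. With no replicate block AMOTL2 had log2 change -0.63 and adjusted p = 0.060; no other member's call changed with the block, while WWC2, TNIK, CDH2, STRN, CSNK1E and TGFB2 lost theirs (adjusted p = 0.059 to 0.097). Of the genes named from the lists, CCDC80 alone was called with the pigment covariate, and CCDC80 and WWTR1 with the mesenchyme covariate. Signs turned for LATS1 with the pigment and mesenchyme covariates (0.026 and 0.018), F3 with the pigment covariate (0.0049), AMOT with the mesenchyme covariate (-0.038), and WTIP under quantile normalisation (-0.059) and with the covariates (-0.16 and -0.18). With an embryo left out the log2 change lay between -0.069 and 0.014 for YAP1, -0.049 and 0.15 for AMOT, and -0.091 and 0.11 for WTIP. None of these was called. The cause of these differences was not tested, other than fewer genes or embryos entering. The paralogue differences kept their sign in every alternative run. With 5 embryos the precision is limited by their number, and AMOTL1, AMOTL2, CRIM1 and CYR61 rest on 174 to 688 reads per library.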
